A study of Rattus norvegicus with 4 samples.

Results

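Messenger RNA of the rat middle ear lining was compared between ears that had received methicillin-resistant Staphylococcus aureus (MRSA) and ears given medium alone. Features were taken if they spanned 300 bp or more and averaged 1 FPKM or more across the libraries of the series, which left 15786 of 27832 (2 of the 4 libraries). FPKM counts sequenced fragments scaled by transcript length and by the fragments of the library, so levels of different genes can be set side by side. The rats were of the SD strain (Sprague-Dawley), and 50 µL of TSB medium, alone or with bacteria, was injected through the eardrum of the right ear. The lining was scraped from the bulla 1 week later. Beside medium (Media) and MRSA, the inocula were Pseudomonas aeruginosa (PA) and a mixture of both species (MRSA + PA). The treatment text in the sample labels describes MRSA for every sample, so titles and source names gave the condition. How many rats gave RNA to a library is not stated. Each condition has 1 library, so every difference below is a size between 2 libraries, with no replicate spread and no test.

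Staphylococcus aureus is a common coloniser of the upper airway and a cause of chronic ear discharge. The middle ear is lined by a thin mucosa in which ciliated cells beat mucus towards the Eustachian tube, above a stroma that holds vessels and few white blood cells at rest. In inflammation, phagocytes take up bacteria and dying cells, and B cells mature into plasma cells that secrete antibody.

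The 4 libraries had 71 to 145 of the 15786 features listed at 0 FPKM, and their FPKM sums over these features ran from 690386 in PA to 776342 in media. The files hold no read counts, so the number of fragments behind each value cannot be given. Markers of epithelium, stroma and white blood cells were present in each library (Epcam at 222 to 266 FPKM, Col3a1 at 1148 to 1532, Ptprc at 18.7 to 64.3), as the tissue label has it. Skeletal muscle was present as well and moved with the conditions: its 33 genes, of which none was at 0 in media or MRSA, summed to 14476 FPKM with medium, 5654 with MRSA, 613 with PA and 599.9 with both species. In bulk tissue, fewer cells of a type and less RNA per cell cannot be told apart. The table uses 20 numbered chromosomes and X and names no genome build, and only chromosomes are given for its features. Gene names are spelled as in the table, and 4 unnamed values in a row stand for media, MRSA, PA and MRSA + PA. At the level limit, Slc3a1 was just inside at 1.42 FPKM in media and 1.25 in MRSA, and CREB5 was just outside at 0.903 and 0.892.

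MRSA and media differed by at least 2-fold for 1316 features that were higher in MRSA (8.34% of all) and 738 that were lower (4.68%). The median difference over all features was 0.05 on the log2 scale, where a log2 difference throughout compares 2 libraries with 0.1 FPKM added to each value. Against media, 1566 features were at least 2-fold higher in PA (9.92%) and 1199 lower (7.6%). In MRSA + PA 1215 were higher (7.7%) and 1193 lower (7.56%). These 3 comparisons share the media library. Differences of this size were more frequent at low levels. From 1 to 2 FPKM, 28.2% of features were at least 2-fold apart between MRSA and media, and from 20 to 100 FPKM 8.03% were.

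Direct comparison of the inocula left fewer differences. MRSA was at least 2-fold above PA for 769 features (4.87%) and below it for 526 (3.33%). Against MRSA + PA it was above for 870 (5.51%) and below for 236 (1.49%). It was above both for 460 features (2.91%) and below both for 99 (0.627%). Of the 460, 216 were at least 2-fold below media, 142 were within 2-fold of media and 102 were at least 2-fold above media. The 460 thus comprise a set in which MRSA lay between media and the other inocula, a set near media, and a set in which MRSA exceeded all libraries.

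For the last set, the same count was made with each library in turn. MRSA was at least 2-fold above each of the other 3 libraries for 102 features (0.646%) and below each for 34 (0.215%). For media these counts were 511 (3.24%) and 803 (5.09%), for PA 289 (1.83%) and 91 (0.576%), and for MRSA + PA 51 (0.323%) and 137 (0.868%). Immunoglobulin segments and regions made up 50 of the 102 features, 26 others carried a gene name and 26 had none. Of the 102, 53 had a mean of at least 5 FPKM, 73 were above 0 in all 4 libraries and 29 overlapped another feature, so that their fragments may be shared. Of all 15786 features, 15522 were above 0 in all 4 libraries and 4220 overlapped another. Of the 34, 14 had no gene name, 2 were immunoglobulin segments and 15 had a mean of at least 5 FPKM.

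**Figure D1:**
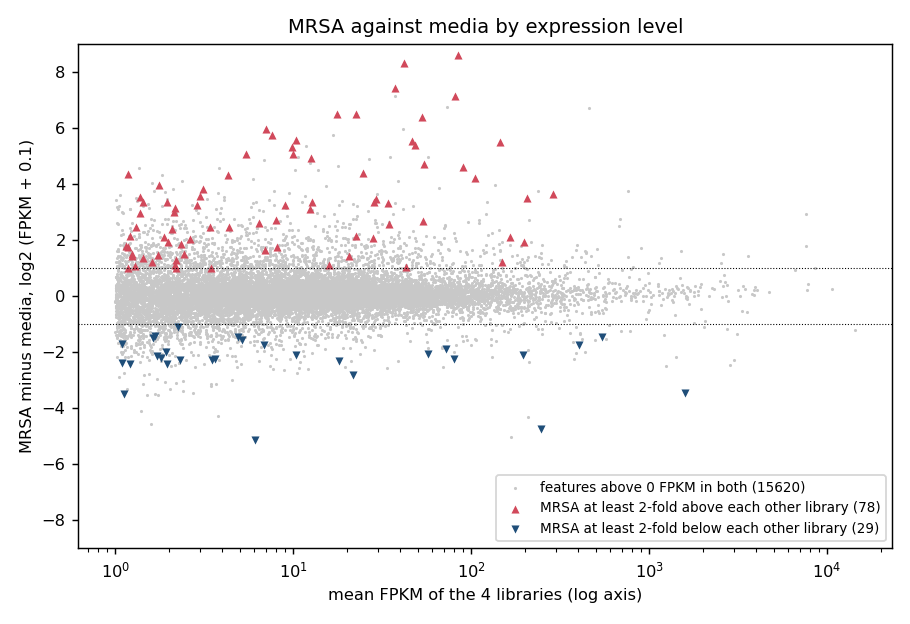
Log2 difference of MRSA from media (vertical axis) against mean FPKM of the 4 libraries (log axis) for the 15620.0 features above 0 FPKM in both libraries. Triangles mark the 78 of the 102 features at least 2-fold above every other library and the 29 of the 34 below every other library that are above 0 in both; dotted lines lie at 2-fold, and the grey cloud is widest at the left, at low levels.

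Antibody transcripts led the features in which MRSA stood above all other libraries. Variable segments carry the antigen-binding part of an antibody, and each B cell clone uses its own pair. Of 131 variable segment features, grouped by the authors' descriptions after values were seen, 104 were at least 2-fold higher in MRSA than in media and 8 lower. Their FPKM summed to 618 with medium, 5181 with MRSA, 1839 with PA and 3369 with both species. MRSA was the highest library for 74 of the segments, MRSA + PA for 33, PA for 19 and media for 5. Over all features, those with media highest included, MRSA was the highest library for 18.7% and the lowest for 15.1%. At least 2-fold higher in MRSA than in media were 8.34% of all features, and 4.68% were lower. In media 42 of the segments were listed at 0, against 5 with MRSA, 8 with PA and 8 with both species. A segment at 0 in media passed the limit of 1 FPKM through the inoculated libraries only. Some, as a KV2A7_MOUSE feature on chromosome 3, passed through MRSA alone. The counts at 0 and those of the highest library are thus partly set by this limit.

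Heavy and kappa segments gave the same order at the top. MRSA was the highest library for 33 of 57 heavy chain segments and for 40 of 69 kappa segments, but for 1 of 5 lambda segments. Lambda segments summed to 315 FPKM in MRSA and 888 in MRSA + PA. Single segments went further apart than the sums. HVR01_RAT, a heavy chain segment on chromosome 6 and 1 of 10 features of that name, had 1.99 FPKM with medium, 298 with MRSA, 7.002 with PA and 16.5 with both species, a log2 difference from media of 7.16. KV206_HUMAN, a kappa segment on chromosome 4 among 20 features of the name, had 11.9, 547, 4.79 and 20.4 FPKM in the same order. Both were at least 2-fold higher in MRSA than in every other library. Not all segments followed: a feature of IGKV4-1 on chromosome 3 had 12.7 FPKM with medium, 2.94 with MRSA, 170 with PA and 42.6 with both species. Some segments of a family are near-identical, and how fragments were divided among those is uncertain.

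Constant regions, which are few and shared by all clones, were high in MRSA too. KACB_RAT, the kappa constant region, had 51.0 FPKM with medium, 634 with MRSA, 238 with PA and 227 with both species, a log2 difference of 3.63 from media, 1.41 from PA and 1.48 from MRSA + PA. Ighm, named for the constant region of IgM, had 42.9, 484, 139 and 161 FPKM in the same order. Its feature spans 239164 bp and overlaps IGHE_RAT, named for that of IgE, which spans 182417 bp. None of the 6 features of this group is named for IgG or IgA. The values of these 2 long features therefore cannot be assigned to IgM or IgE alone. IGHE_RAT itself had 2.93 FPKM with medium, 93.4 with MRSA, 86.2 with PA and 47.3 with both species. In all, MRSA was the highest library for 5 of the 6 constant region and J chain features. The exception was LAC2_RAT, a lambda constant region, at 158 FPKM in MRSA and 171 in MRSA + PA. Igj, the chain that joins secreted IgM and IgA, was within 2-fold between MRSA (229 FPKM) and MRSA + PA (122).

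**Figure D2:**
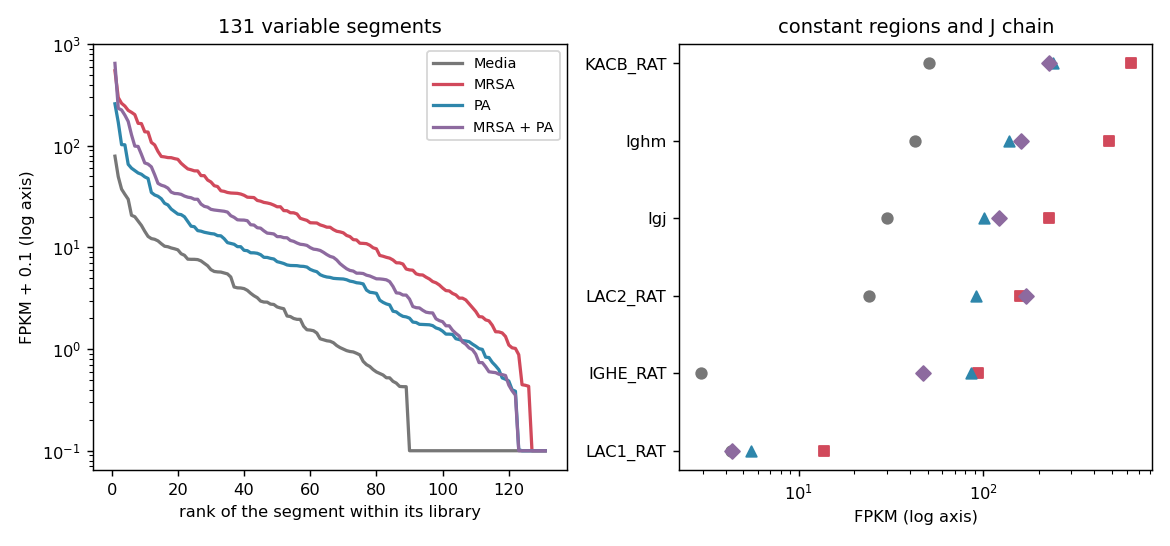
Left, FPKM + 0.1 (log axis) of the 131 immunoglobulin variable segment features, ordered from high to low within each library (lines: media, MRSA, PA, MRSA + PA); right, FPKM (log axis) of the 6 constant region and J chain features, with the same colours. The MRSA line lies above the others over most ranks, and media is at the floor for 42 segments.

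B cell genes other than the antibody itself were also higher, by less. Of 16 B cell genes, 11 were at least 2-fold above media in MRSA, against 8.34% of all features, and MRSA was the highest library for 12. Their FPKM summed to 93.2 with medium, 232 with MRSA, 189 with PA and 185 with both species. Cd72, an inhibitory receptor of B cells, had 5.59 FPKM with medium, 37.8 with MRSA, 22.7 with PA and 23.4 with both species. Blk, a kinase of B cell receptor signalling, had 3.55, 13.6, 3.52 and 9.08 FPKM, so that PA stood at the media level. Ms4a1, a surface protein of the lineage, had 0.925, 3.87, 2.78 and 2.93 FPKM. The 14 plasma cell genes had a median log2 difference of 0.57 with MRSA, 0.80 with PA and 0.44 with both species, with MRSA the highest library for 4. Sdc1, a surface marker of plasma cells that epithelium carries as well, was at 165, 202, 296 and 279.6 FPKM.

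Several genes that macrophages express were high in MRSA. Mmp12, the macrophage elastase, had 13.2 FPKM with medium, 246 with MRSA, 77.6 with PA and 85.1 with both species, or 4.21 above media, 1.66 above PA and 1.53 above MRSA + PA on the log2 scale. The paper's real-time PCR gave another order for Mmp12, with PA the highest and MRSA the lowest of the inocula. Cd5l, a protein secreted by tissue macrophages that binds lipids and bacteria, had 0.847 FPKM with medium, 31.8 with MRSA, 4.003 with PA and 3.38 with both species. Both genes were higher than media in all 3 inoculated libraries, with MRSA furthest. Fabp4, a fatty acid carrier of fat cells and macrophages, had 113, 264, 113 and 106 FPKM, and here PA and MRSA + PA stood at the media level. Pf4, a CXC chemokine of platelets and megakaryocytes that macrophages also express, followed the same course at 109, 413, 128 and 137 FPKM. Ccl9, a CC chemokine that attracts myeloid cells, had 9.26, 134, 50.3 and 69.9 FPKM, and MRSA was less than 2-fold above MRSA + PA.

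In the macrophage lists most genes were above media. Of 24 macrophage and monocyte genes, 19 were at least 2-fold above media with MRSA, 10 with PA and 13 with both species, and MRSA was the highest library for 15. Their median log2 differences were 1.21, 0.96 and 1.07. Over all features, 8.34% were at least 2-fold above media with MRSA, 9.92% with PA and 7.7% with both species. Of 24 genes of lipid-handling macrophages, 15 were at least 2-fold above media in MRSA and MRSA was the highest library for 15. Apoe, the main lipid carrier of macrophages, had 3539.6 FPKM with medium, 12183.5 with MRSA, 6352 with PA and 8170.2 with both species. Apoc1, its neighbour in function, had 15.7, 245, 119 and 167 FPKM, and Trem2, a lipid receptor of macrophages, 27.2, 103, 70.8 and 65.3. By the paper's real-time PCR, Apoc1 was highest with both species, followed by MRSA and then PA. Differences between inocula were small for most members: 3 of the 24 lipid-handling genes were at least 2-fold higher in MRSA than in PA. Over all features 4.87% were. Against MRSA + PA, 2 of the 24 were higher and 2 lower, beside 5.51% and 1.49% of all features. Those lower in MRSA than in MRSA + PA, Spp1 (2276 against 5466 FPKM) and Acp5 (395 against 807), are also expressed by bone cells.

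MRSA was often the highest library for lysosomal and phagocyte oxidase genes, but not by the medians of these lists. MRSA was the highest library for 17 of 31 lysosomal genes, whose median log2 difference from media was 0.53 with MRSA, 0.54 with PA and 0.57 with both species. Ctsd, a lysosomal protease, had 230.1 FPKM with medium, 733 with MRSA, 543 with PA and 517 with both species. The 12 oxidase genes had medians of 1.20 with MRSA, 1.43 with PA and 1.12 with both species. MRSA was the highest library for 7 of the 12, which encode the phagocyte enzyme and its partners. Cybb, its catalytic subunit, had 41.5, 214, 157 and 162 FPKM and Ncf1, a cytosolic activator, 28.6, 176, 106 and 133. The epithelial oxidase Duox2 was highest in PA, at 14.7 FPKM against 5.38 in MRSA. Of 13 dendritic cell genes, MRSA was the highest library for 9, among them Batf3, a factor of cross-presenting dendritic cells, at 3.20, 5.34, 2.96 and 4.98 FPKM.

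Sensors of bacteria bind cell wall parts and other microbial products and start the innate response. Of 33 such genes, 17 were at least 2-fold above media with MRSA, 15 with PA and 9 with both species. Over all features 8.34%, 9.92% and 7.7% were. None of the 33 was 2-fold apart between MRSA and PA or between MRSA and MRSA + PA. Tlr2, the receptor for lipoproteins of Gram-positive bacteria, had 11.2 FPKM with medium, 40.3 with MRSA, 33.0 with PA and 28.9 with both species. Tlr4, the receptor for the endotoxin of Gram-negative bacteria, had 6.80, 10.4, 11.97 and 10.5 FPKM. T cell genes were also alike, with medians of 1.78 with MRSA, 1.82 with PA and 1.82 with both species over 32 genes. Cytotoxic lymphocyte genes split the inocula: 10 of 16 were at least 2-fold higher in MRSA than in PA, and 0 were 2-fold apart from MRSA + PA. At least 2-fold higher in MRSA than in PA were 4.87% of all features. Prf1, the pore-forming protein perforin, had 1.82 FPKM with medium, 7.93 with MRSA, 2.66 with PA and 6.84 with both species.

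Other features high in MRSA belong to none of these groups. Itln1, intelectin, a lectin that binds bacterial sugars, had 22.2 FPKM with medium, 144 with MRSA, 3.81 with PA and 45.1 with both species. Prcd, known from photoreceptor discs, had 0.726, 39.5, 0.797 and 0.49 FPKM, with 3 libraries under 1. H2-Q8, a class I MHC name on chromosome 20, had 0.553, 111, 35.6 and 2.76 FPKM. Ifna5, an interferon alpha name carried by 2 features, was listed at 0 in media and had 269 FPKM with MRSA, 75.5 with PA and 31.9 with both species. The class I region and the interferon genes hold near-identical copies, and the division of fragments among them is uncertain.

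A pair of features with very large contrasts overlap another feature. A Lilrb3 feature on chromosome 1, of a family of inhibitory leukocyte receptors, had 123 FPKM with medium, 537 with MRSA, 1.03 with PA and 0.152 with both species. The other 4 features of that name that passed the filter were at 8.84 to 28.4 FPKM in MRSA and did not show this contrast. Lyz2, a lysozyme of macrophages, had 9.62, 106, 0.731 and 0.85 FPKM on a feature that overlaps Lyz1, which had 1436, 10972, 7802 and 10356 FPKM. Whether strand was used in counting is not stated, so fragments of overlapping genes may not be told apart.

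**Figure D3:**
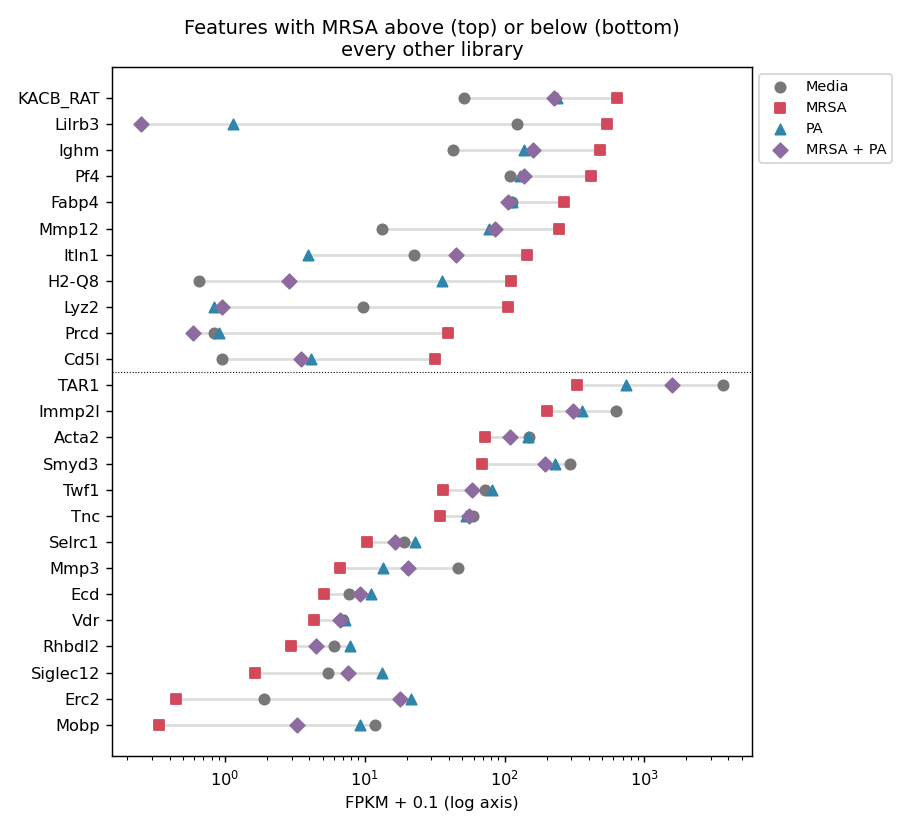
FPKM + 0.1 (log axis) in the 4 libraries for features with MRSA above (upper group) or below (lower group) every other library: those without an immunoglobulin segment name among the 15 furthest in each direction, and 6 others at least 2-fold above every other library that were added after values were seen. MRSA squares lie at the right end of each upper line and at the left end of each lower line.

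Named genes in which MRSA was the lowest library included myelin, matrix and contractile genes. Mobp, a myelin protein, had 11.7 FPKM with medium, 0.234 with MRSA, 9.20 with PA and 3.15 with both species. Over the 15 genes of Schwann cells and myelin, the median difference from media was -0.95 with MRSA, -0.92 with PA and -1.02 with both species. Mmp3, a stromal protease that cuts matrix and activates other proteases, had 46.2, 6.51, 13.3 and 20.3 FPKM, at least 2-fold lower in MRSA than in each other library. Mmp13, a collagenase of bone and stroma, had 1366, 519.5, 587 and 2388 FPKM. Mmp12 and Mmp3 thus lay at opposite ends in MRSA. Tnc, tenascin C, a matrix protein of repair, had 59.5, 34.3, 53.3 and 55.8 FPKM, under the other libraries by less than 2-fold. Acta2, the actin of smooth muscle and myofibroblasts, had 148, 72.4, 147 and 109.7 FPKM. Others were Siglec12, a sialic acid receptor, at 5.37, 1.54, 13.1 and 7.46 FPKM, and Erc2, known from nerve terminals, at 1.79, 0.344, 21.3 and 17.7.

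Several cell type and pathway lists ranked low in MRSA with small steps. Of 21 cholesterol synthesis genes, MRSA was the lowest library for 15 and the highest for 1. It was below PA for 18 and below MRSA + PA for 20, with medians of -0.28 and -0.30, and 2 of the 21 were at least 2-fold below media. Over all features the medians against PA and MRSA + PA were 0.004 and 0.008, and 4.68% were at least 2-fold below media in MRSA. Hmgcs1, an early enzyme of the pathway, had 28.2 FPKM with medium, 15.5 with MRSA, 20.6 with PA and 20.9 with both species. Idi1, an isomerase of the isoprenoid steps, had 12.9, 6.32, 6.41 and 11.8 FPKM, and Msmo1, a later enzyme, 31.5, 18.2, 22.5 and 25.8. Insig1, which holds back the pathway's transcription factors when sterols are plentiful, did not share the order, at 44.3, 26.2, 19.6 and 46.9 FPKM.

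Vessel wall genes ranked low in MRSA in part. The medians of endothelial genes were -0.13 against PA and -0.22 against MRSA + PA. Those of smooth muscle and pericyte genes were -0.41 and 0.10, so they were not lower than in MRSA + PA. MRSA was the lowest library for 9 of 18 endothelial genes and for 6 of 13 smooth muscle and pericyte genes. Of the 18 and the 13 genes, 0 and 4 were at least 2-fold below media, against 4.68% of all features. Plvap, which forms the diaphragms of leaky capillaries, had 114 FPKM with medium, 76.8 with MRSA, 85.1 with PA and 128 with both species. Pecam1, a junction protein of endothelium, had 29.5, 21.6, 27.1 and 27.5 FPKM, and Rgs5, a marker of pericytes, 139, 90.5, 121 and 115. Cdh5, the endothelial cadherin, was lowest in media instead, at 19.5 FPKM against 22.1 in MRSA.

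**Figure D4:**
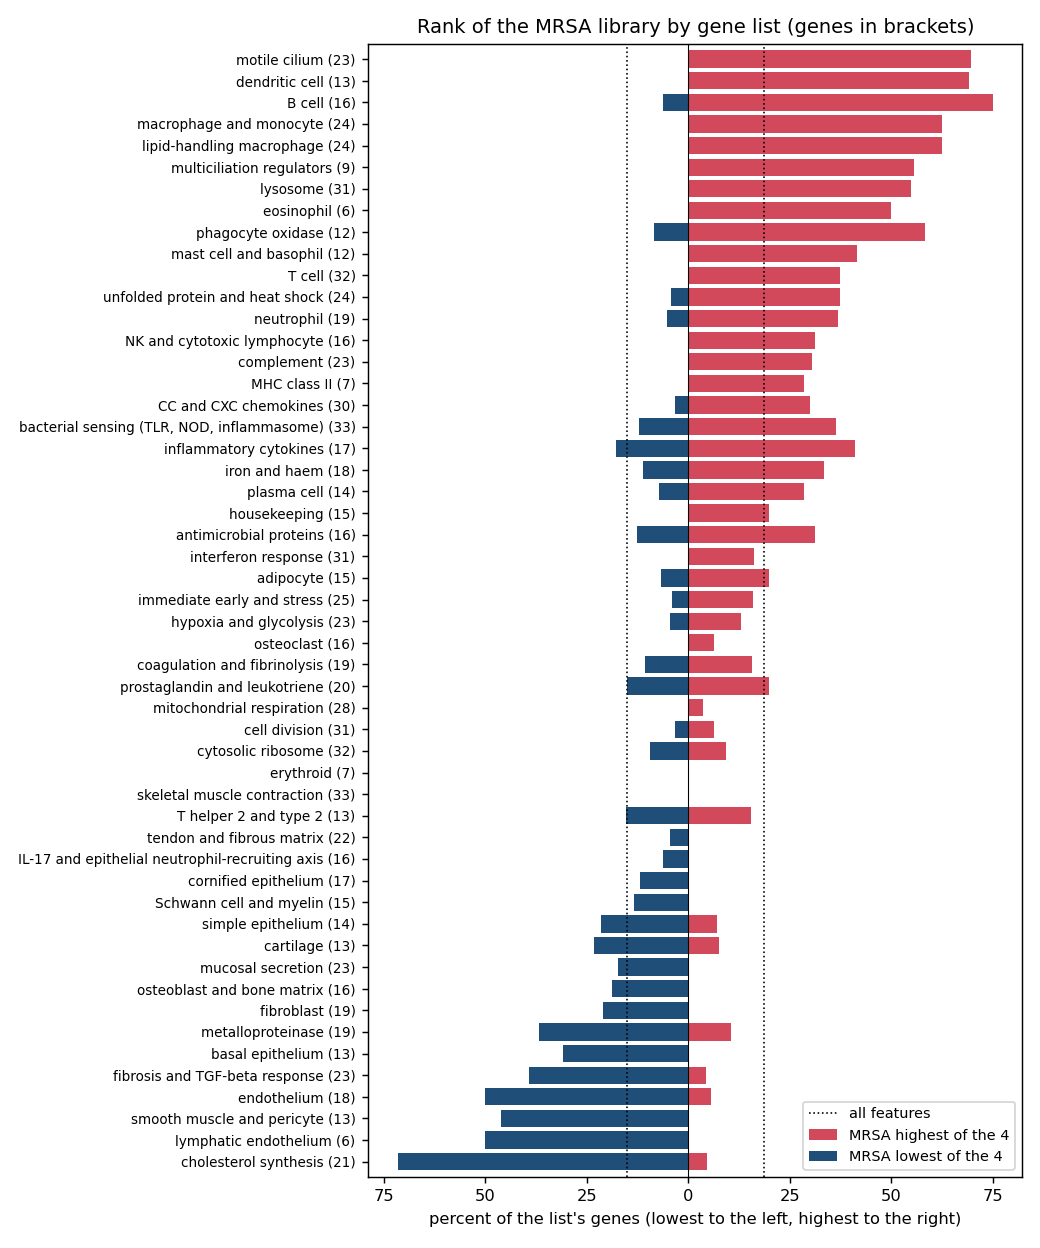
Percent of the genes of each of the 52 lists with at least 5 genes for which MRSA was the highest (bars to the right) or the lowest (bars to the left) of the 4 libraries; dotted lines mark 18.7% and 15.1% over all features. Motile cilium, dendritic cell, B cell and macrophage lists reach furthest to the right, and cholesterol synthesis reaches furthest to the left. The 18.7% includes features with media highest, so a list above media with every inoculum can pass it without MRSA standing out. T cell genes reach 37.5% with medians against media of 1.78 with MRSA, 1.82 with PA and 1.82 with both species.

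Motile cilium genes separated MRSA from PA and MRSA + PA while staying near media. All 23 genes were higher in MRSA than in either other inoculum, PA first, with median log2 differences of 0.76 and 1.00, and 7 and 11 of them were at least 2-fold higher. Over all features these medians were 0.004 and 0.008, and 4.87% and 5.51% were at least 2-fold higher. Against media the median of the 23 genes was 0.15 with MRSA, -0.66 with PA and -0.92 with both species, and 0 of 23 were 2-fold apart with MRSA, 4 with PA and 8 with both species. Foxj1, the master factor of ciliated cells, had 23.0 FPKM with medium, 33.997 with MRSA, 22.0 with PA and 16.6 with both species. Riiad1, a gene of ciliated cells, had 81.5, 99.8, 49.3 and 41.0 FPKM, and Ccdc113, a ciliary coiled-coil protein, 19.0, 22.3, 9.47 and 8.65. The summed FPKM of the 23 genes was 655 with medium, 705 with MRSA, 376 with PA and 349 with both species. MRSA was above media for 16 of the genes and below it for 7, and media was above PA and MRSA + PA for all 23.

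The 142 features within 2-fold of media and at least 2-fold above both PA and MRSA + PA held 5 of these cilium genes and others known from cilia. Of the 58 with a gene name and a mean of at least 5 FPKM, named here after values were seen, Dynlrb2, a dynein light chain, had 179 FPKM with medium, 203 with MRSA, 98.5 with PA and 88.7 with both species. Sntn, a protein of the ciliary tip, had 121, 99.2, 44.0 and 43.7 FPKM, and AK7, an adenylate kinase of motile cilia, 14.0, 17.5, 7.25 and 5.41. The same 58 held muscle transcripts, as Sln, which regulates the muscle calcium pump, at 247 FPKM in media and 142 in MRSA and listed at 0 in PA and MRSA + PA. General epithelial genes did not follow the cilium genes: the 14 simple epithelium genes summed to 1206 FPKM with medium, 1219 with MRSA, 1352 with PA and 1207 with both species. Basal keratin genes went the other way, with Krt5 at 83.6, 95.4, 393 and 175 FPKM. Regulators of centriole number gave a mixed picture: Ccno, needed to multiply centrioles, had 0.469, 6.09, 6.48 and 3.29 FPKM, and Ccdc67, which acts beside it, 4.82, 9.71, 5.79 and 4.12. For Ccno the paper's real-time PCR gave another order, with MRSA the highest and PA the lowest of the inocula.

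**Figure D5:**
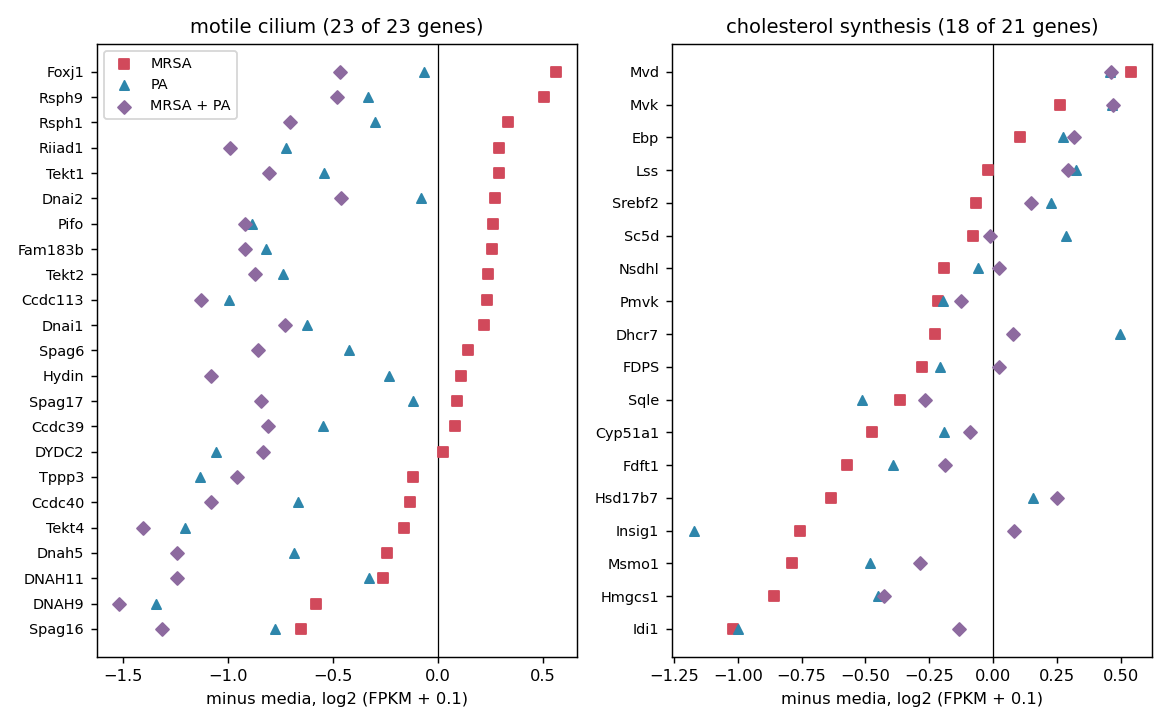
Log2 difference from media (horizontal axis) in MRSA, PA and MRSA + PA for the 23 motile cilium genes and 18 of the 21 cholesterol synthesis genes, 1 line a gene. MRSA squares lie to the right of both other marks for all 23 cilium genes, and are the leftmost mark for most cholesterol synthesis genes.

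Muscle, fat and tendon genes were among those at least 2-fold higher in MRSA than in both other inocula. Of the 33 skeletal muscle genes, 30 were at least 2-fold below media in MRSA, against 4.68% of all features. At least 2-fold above both PA and MRSA + PA were 31 of the 33, with 8 of 15 adipocyte and 7 of 22 tendon genes. Over all features 2.91% were. Ckm, muscle creatine kinase, had 1028 FPKM with medium, 409 with MRSA, 0.187 with PA and 0.0901 with both species. Adipoq, the fat cell hormone adiponectin, had 35.4, 6.79, 1.14 and 0.271 FPKM, and Tnmd, a tendon protein, 64.5, 17.7, 0.421 and 0.465. Media was the highest library and MRSA the second highest for these 3 genes. The paper's real-time PCR did not give this order: MRSA was not the inoculum nearest media for Tnmd or for the muscle genes Acta1 and Myh1. The 28 mitochondrial respiration genes, which muscle and cilia use heavily, were above PA in MRSA for 28 and above MRSA + PA for 26, with medians of 0.40 and 0.13. Below media were 27 of them with MRSA, 28 with PA and 28 with both species, with medians of -0.17, -0.59 and -0.31. The part of muscle in the differences of other genes was not tested.

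Lists of other resident and visiting cells added the following. The 6 eosinophil genes had medians of 0.32 with MRSA, -2.04 with PA and -0.45 with both species. Prg2, the major basic protein of their granules, had 11.4 FPKM with medium, 13.05 with MRSA, 1.77 with PA and 7.38 with both species, and Epx, the peroxidase, 1.39, 1.58, 0.43 and 0.867. Ccl11, an eosinophil attractant, had 26.2, 5.46, 0.127 and 0.0909 FPKM, low in all inoculated libraries. The 12 mast cell and basophil genes had medians of 0.36 with MRSA, 0.26 with PA and -0.30 with both species. Cma1, a chymase of mast cells, had 6.14, 11.3, 5.56 and 5.05 FPKM, and the mast cell receptor Mrgprx2 0.614, 6.66, 1.99 and 2.19. MRSA was at least 2-fold above PA and MRSA + PA for both, and above media as well for Mrgprx2. Haemoglobin and other red cell genes were below media in each inoculated library, with a median of -2.14 in MRSA. Cell division genes had a median of 1.12 in MRSA and 1.43 in PA, with MRSA the highest library for 2 of 31. The 7 MHC class II genes, which present antigen to T cells, had medians of 1.44 with MRSA, 0.85 with PA and 1.47 with both species. The 16 genes of the IL-17 axis, which recruits neutrophils through the epithelium, had medians of 0.70, 1.09 and 0.45, with MRSA the highest library for 0.

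Among the 12 named features furthest below media in MRSA, airway secretory, fat, muscle and red cell genes were low in PA and MRSA + PA as well. Clca1, a secreted protein of mucous cells, had 22.6 FPKM with medium, 3.52 with MRSA, 5.88 with PA and 3.47 with both species, a log2 difference of -2.65 for MRSA. Cyp2f2, an enzyme of airway secretory cells, had 27.9, 4.60, 5.41 and 4.86 FPKM, and media was far above the 3 inoculated libraries for both genes. Hba1, a haemoglobin chain with 2 features, had 7850.5, 1436, 749.9 and 1320 FPKM on the higher of them. Otor, a secreted protein of cartilage and the inner ear, was among the 12 furthest above media, at 0.136, 12.7, 34.4 and 19.7 FPKM, with PA rather than MRSA highest.

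The interferon list was searched in promoters, since its genes share a known control element. The promoters, from 250 bases before to 50 after each gene start, are RefSeq sequences of the rat build GRCr8, matched by symbol for 9650 of 13218 gene names. The letters GAAA, any 2 bases, GAAA on either strand, the core of the interferon element, were present in 15 of 25 interferon list promoters (60.0%) and in 3.77% of all 27457. Of the 9650 matched promoters, 2.98% held them. They were present in 6.08% of the 576 promoters of genes at least 2-fold above media in MRSA and in 2.15% of the 372 of genes at least 2-fold below. A search of 2 other motifs found no match in the lists they were chosen for: GTTNCC, any 2 bases, GGNAAC (the X-box) in 0 of 17 cilium promoters and 0.459% of all, and TCACNCCAC (a sterol element) in 0 of 14 cholesterol synthesis promoters and 1.13% of all. No match says only that these letters are not in this window. The 3 interferon genes with the motif that lay furthest above media in MRSA are shown 5′ to 3′, with the match in capitals.
Cxcl10: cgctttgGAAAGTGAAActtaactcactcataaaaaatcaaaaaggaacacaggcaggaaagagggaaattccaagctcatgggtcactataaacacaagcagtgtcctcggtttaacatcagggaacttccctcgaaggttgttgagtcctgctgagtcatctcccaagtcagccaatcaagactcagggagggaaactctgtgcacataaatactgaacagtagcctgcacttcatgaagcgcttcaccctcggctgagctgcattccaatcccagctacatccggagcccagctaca
Gbp5: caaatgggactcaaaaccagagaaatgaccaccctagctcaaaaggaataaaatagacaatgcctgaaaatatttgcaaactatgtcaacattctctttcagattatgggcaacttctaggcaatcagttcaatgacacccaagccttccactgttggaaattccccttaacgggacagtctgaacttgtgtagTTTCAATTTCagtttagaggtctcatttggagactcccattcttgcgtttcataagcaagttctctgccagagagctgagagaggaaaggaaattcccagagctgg
Psmb8: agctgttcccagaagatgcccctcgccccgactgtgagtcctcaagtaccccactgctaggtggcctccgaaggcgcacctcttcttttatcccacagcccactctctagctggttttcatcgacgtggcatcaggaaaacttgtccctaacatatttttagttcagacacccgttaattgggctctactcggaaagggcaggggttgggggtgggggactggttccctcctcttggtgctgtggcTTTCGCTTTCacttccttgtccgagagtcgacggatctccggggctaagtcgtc
They lie at chr14:15988816-15989115 (plus strand), chr2:233910749-233911048 (plus strand) and chr20:4656982-4657281 (minus strand). Cxcl10, a chemokine for T cells, had 1.04 FPKM with medium, 9.40 with MRSA, 5.52 with PA and 9.70 with both species. Gbp5, a guanylate-binding protein, had 2.83, 6.42, 6.09 and 7.5001 FPKM, and Psmb8, an immunoproteasome subunit, 41.8, 91.9, 85.0 and 93.5. All 3 were above media with each inoculum, and the list of 31 genes had medians of 0.72 with MRSA, 0.76 with PA and 0.56 with both species, with MRSA the highest library for 5.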

How the data were processed

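RNA of the middle ear lining was captured by poly(A) and sequenced on a HiSeq2500, with 1 library for each of 4 conditions. The authors aligned reads with STAR 2.3.0e and deposited FPKM values from Cufflinks 2.1.1 in 1 table of 4 columns. The submitters' processing notes also name edgeR. The methods name a human annotation, while the table has rat chromosomes, and no build is named in the table. The 3 tables of the authors' own comparisons (log2 ratios, p-values and q-values) were not used.

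Features under 300 bp or with a mean under 1 FPKM were left out, and log2 differences were computed after 0.1 FPKM was added. A gene in a list is represented by its feature of highest mean. The deposited FPKM hold no read counts, so no interval or floor was computed, and the study's read totals were not used here. With 1 library per condition no test was run and differences are called by size, at 2-fold. Computation used Python 3.11.15, numpy 2.4.6, pandas 2.3.3 and matplotlib 3.10.9, and was tested on simulated data.

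The members and the 55 gene lists were chosen with earlier results of these data known. Named genes were the 12 furthest above and below media and the 15 furthest outside the other 3 libraries (mean of at least 5 FPKM), the 8 highest of those at 0 in media, those opposite in direction to both other inocula, and in each list the 3 highest, the 3 furthest from media and the 2 furthest from PA and MRSA + PA. Some genes named in the text fall outside this rule. These, the rank counts, the immunoglobulin grouping, the features near media, the promoters printed and the lists described were chosen after values were seen. Alternatives were other added constants, scalings, filters and fold limits. Some genes are not reported here by name; counts, sums and medians of the lists include them.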

Additional observations from a re-analysis of the deposited data

Results flagged for a closer look

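For 5 features with a gene name and a mean of 5 FPKM or more, MRSA lay at least 2-fold from media in one direction while both PA and MRSA + PA lay at least 2-fold from media in the other. The difference between inocula was not tested, since each has 1 library. The log2 differences of MRSA from media were 2.12 for Lilrb3, 3.45 for Lyz2, 1.04 for HVM45_MOUSE, -2.08 for IGKV4-1 and -2.09 for Erc2. HVM45_MOUSE, a heavy chain segment name, had 49.5 FPKM with medium, 102 with MRSA, 7.70 with PA and 12.7 with both species. Outside the features analysed, those under 300 bp held 63.1% of all FPKM in MRSA, against 54.0% in media, 59.6% in PA and 49.2% in MRSA + PA.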

How the results depend on the processing

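No paired analysis was possible because each condition has 1 library. For the same reason no library could be left out. Some medians close to 0 changed sign. Under equal FPKM sums the median of MRSA against PA went from 0.00 to -0.11 for T cell genes and from 0.01 to -0.10 for bacterial sensing genes, and that of simple epithelium against media from -0.02 to 0.04. The median of all features against media was -0.01 under median-of-ratios scaling. At a mean of 5 FPKM or more, 725 features were at least 2-fold above media in MRSA and 306 below, and 53 were above and 15 below every other library. Without a level filter these counts were 2276, 1970.0, 314 and 144, and at 3-fold 638, 248, 61 and 17. With 1 FPKM added, 16 were below every other library. Features higher in MRSA made up 64.1% of those 2-fold apart from media, 70.3% at a mean of 5 FPKM or more and 53.6% without a level filter. List medians that moved were adipocyte (-0.34) and neutrophil (1.59) at a mean of at least 5 FPKM, neuron (0.01) and erythroid (-1.21) without a level filter, and retroviral names (1.33) without a length filter. Of 3498 values of named genes, 56 moved, under another added constant. MRSA was the highest library for 15.8% of features with equal FPKM sums and for 17.4% under median-of-ratios scaling, and equal sums left it highest for 12 of 31 lysosomal, 3 of 9 multiciliation, 2 of 14 plasma cell, 0 of 31 cell division and 5 of 28 mitochondrial respiration genes. Without overlapping features, chosen after seeing the data, MRSA was the highest library for 10 of 16 motile cilium genes.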
